A study of Homo sapiens with 12 samples.

Results

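A pair of hairpins labelled against the same gene, sh-A and sh-B, were compared with each other across all genes in H1975, an established line from a human lung adenocarcinoma that carries mutant EGFR. Every library came from cells that carry a tetracycline-inducible hairpin and were given doxycycline (0.5 µg/ml) for 2 days. The sh-A and sh-B cells are labelled as knockdowns of KAT5, and the control cells carry a control hairpin and received the same doxycycline. In the series' own description only sh-C and sh-B are listed as hairpins against the gene, under its other name TIP60. For sh-A the target rests on the sample labels alone. The comparison uses the 3 sh-A libraries (numbered 3, 4 and 5) and the 3 sh-B libraries (3, 4 and 5), 6 of the 12 libraries of the series, and the 3 control libraries (1, 2 and 3) give the direction of each change. A further hairpin, sh-C, has 3 libraries (1, 2 and 3) and enters the shared estimate of spread and is compared with control once. The hairpin sequences, and whether each is a single clone or a pool of transduced cells, are not stated in the labels. Nothing in the labels says that replicate libraries are separate cultures, and the p-values therefore measure a spread that may be technical.

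KAT5, also called TIP60, is the acetyltransferase of the NuA4/TIP60 complex. The complex acetylates histones H4 and H2A, exchanges the H2A.Z variant at promoters and takes part in the response to DNA breaks. Its TRRAP, EP400 and other subunits bring it to sequence-specific factors such as MYC, p53 and E2F1, and it has been described both as a coactivator and as a repressor of genes.

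Expected counts summed to between 15631504 and 28073366 per library over the 12 libraries. The epithelial genes CDH1, EPCAM, KRT7, KRT8, KRT18 and KRT19 were present in every library. Levels below are counts scaled to library size (CPM), and a log2 difference is from the edgeR quasi-likelihood fit over 12 libraries, called at a Benjamini-Hochberg adjusted p below 0.05. A gene written as higher, lower, risen or fallen passed that test, and n is 3 libraries in each group throughout. Library sh-A 3 stood apart from its group mates: its root mean square log2 distance from them was 0.655, against 0.412 and 0.434 for sh-A 4 and sh-A 5 and 0.322 to 0.449 for the sh-B libraries. The total counts of genes called between the hairpins and of opposite genes are therefore given with and without it. List counts without it are given only where stated.

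KAT5 (NCBI gene 10524) was lower with both hairpins, and lower with sh-B than with sh-A. Control 1, 2 and 3 held 31.8, 27.5 and 27.5 CPM, sh-A 3, 4 and 5 held 19.5, 20.0 and 18.7 CPM, and sh-B 3, 4 and 5 held 14.6, 13.4 and 12.7 CPM. The 3 groups did not overlap. The sh-A minus sh-B difference was 0.51 (SE 0.09, edgeR adjusted p = 0.00079) on the log2 scale, n = 3 against 3, and 0.51 without sh-A 3.

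Differences between the hairpins reached across the transcriptome. Of 15592 genes tested, 7410 (47.5%) were called between sh-A and sh-B by edgeR, 3947 (25.3%) higher in sh-A and 3463 (22.2%) lower. The difference was at least 2-fold in 2386 genes (15.3%), 1742 (11.2%) higher in sh-A and 644 (4.13%) lower. Against control the same fit called 4167 genes (26.7%) with sh-A, 14.4% higher and 12.3% lower, and 4688 (30.1%) with sh-B, 15% each way, so more genes separated the hairpins from each other than separated either from control. Without sh-A 3, 8057 genes (51.3%) were called between the hairpins, and 6804 of the 7410 were called in the same direction both ways. Without sh-A 3, 0 of the 7410 changed direction.

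Set beside control, most of the 7410 genes were called with 1 hairpin and not with the other, a difference in calls that is no test by itself. With sh-A alone 1248 rose and 882 fell, and with sh-B alone 1182 rose and 1300 fell. Both hairpins raised 69 and lowered 119 by different amounts, and 1699 were called against control with neither. The remaining 911 (5.84% of the genes tested) moved in opposite directions: 423 (2.71%) rose with sh-A and fell with sh-B, and 488 (3.13%) fell with sh-A and rose with sh-B. Both comparisons with control share the same 3 control libraries, so the values below are given side by side. A call between sh-A and sh-B was not required of these genes. Their opposite calls against control all but fix it, and all 911 had one. Without sh-A 3, in a fit that shares all the other libraries, each of the 911 was still called between sh-A and sh-B.

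The opposite set was not symmetric in size or in level. The 423 genes higher in sh-A had a median of 0.62 for sh-A minus control and -0.76 for sh-B minus control on the log2 scale, and a median control level of 15.1 CPM. The 488 genes lower in sh-A had medians of -0.55 and 0.45 and a median control level of 50.9 CPM. Over all genes tested both medians were at most 0.02 in size and the median control level was 21.1 CPM. At least 2-fold changes both ways were seen in 99 genes of the first set (0.635% of all genes) and 12 of the second (0.077%). Of those 99, 18 had at least 5 CPM in control and 32 were at least 2 times as high in sh-A 3 as in its group mates on average. The counts depended on single libraries. Without sh-A 3 they were 676 (4.3%) and 664 (4.23%), with 372 of the 423 and 457 of the 488 still opposite. Without control 1, 2 or 3 they were 232, 238 and 228 for the first set and 277, 322 and 296 for the second.

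**Figure D1:**
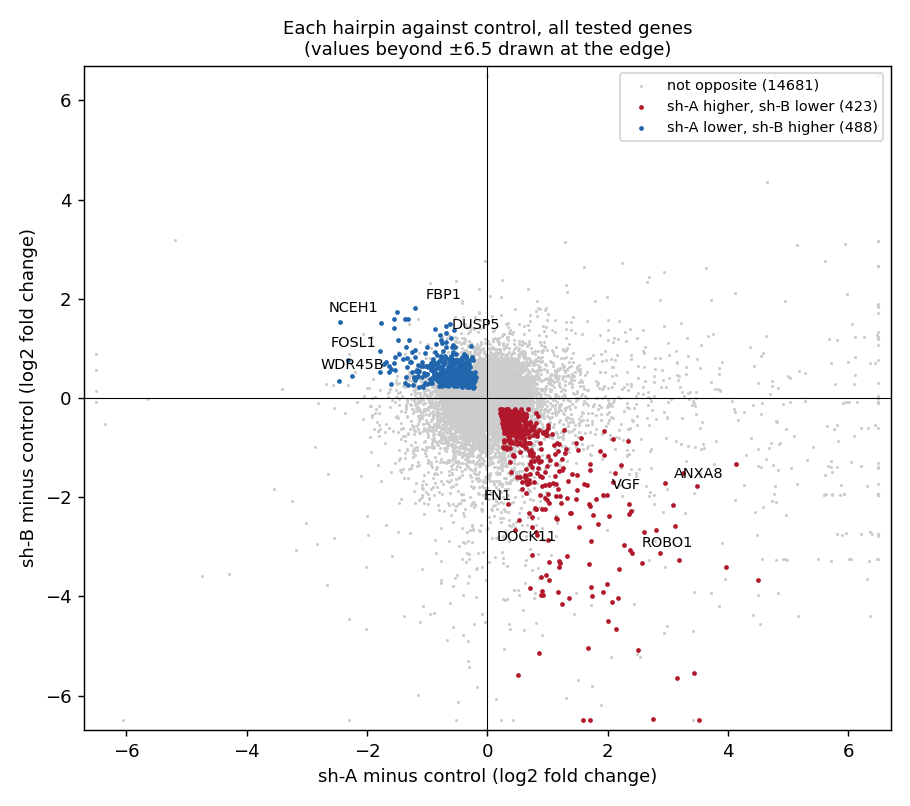
Each point is 1 of 15592 genes, with sh-A minus control on the x axis and sh-B minus control on the y axis, both as log2 fold changes. Red points are the 423 genes called higher with sh-A and lower with sh-B, blue points the 488 genes called the other way; 99 red and 12 blue genes are at least 2-fold from control on both axes.

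The leading genes that rose with sh-A and fell with sh-B included VGF, GPNMB, DOCK11, ABCC2, PADI3, C15orf48, ANXA8, ROBO1 and HEY1. VGF, which encodes a secreted neuropeptide precursor, had the smallest p of them. Its levels were 42.2, 37.8 and 47.5 CPM in the controls, 176, 147 and 159.7 CPM in sh-A 3, 4 and 5, and 14, 9.39 and 9.66 CPM in sh-B 3, 4 and 5. Every sh-A library lay above the controls and every sh-B library below them. The sh-A minus sh-B difference was 3.87 (SE 0.16, edgeR adjusted p = 1.7e-08), made of 1.92 for sh-A and -1.95 for sh-B against control. GPNMB, a glycoprotein of melanosomes and lysosomes, went from 61.4, 67.9 and 69 CPM in control to 84.9, 233 and 230.4 CPM with sh-A and 15.3, 16.3 and 17 CPM with sh-B, a difference of 3.49 (SE 0.31, edgeR adjusted p = 2.8e-06). Its rise was smaller in sh-A 3 than in the other sh-A libraries. DOCK11, an exchange factor for Cdc42, stood at 10.3, 10.1 and 11 CPM in control, 24.2, 31.1 and 35.6 CPM with sh-A and 1.21, 2.35 and 1.56 CPM with sh-B (log2 difference 4.13, SE 0.21, edgeR adjusted p = 7.1e-08).

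The fibronectin gene FN1, which codes for an abundant matrix glycoprotein, followed the same pattern at a far higher level. Its levels were 336, 329 and 333 CPM in control, 402, 521 and 648 CPM with sh-A and 86.9, 104 and 109.9 CPM with sh-B, with no overlap between groups (log2 difference 2.39, SE 0.15, edgeR adjusted p = 2.5e-07). VGF and FN1 are 2 of the 14 genes in this set whose window of 250 bases before the start holds the full cyclic AMP response element TGACGTCA, the motif bound by CREB and ATF factors. Their windows are shown as examples, because both genes belong to the fixed set listed under processing and share this element. Sequences are from RefSeq (GRCh38.p14), in the direction of the gene, with the element in capitals. The window of VGF is chr7:101165570-101165819 on the minus strand, with the element starting 79 bases before the start, and that of FN1 is chr2:215436069-215436318 on the minus strand, with the element 183 bases before.
VGF: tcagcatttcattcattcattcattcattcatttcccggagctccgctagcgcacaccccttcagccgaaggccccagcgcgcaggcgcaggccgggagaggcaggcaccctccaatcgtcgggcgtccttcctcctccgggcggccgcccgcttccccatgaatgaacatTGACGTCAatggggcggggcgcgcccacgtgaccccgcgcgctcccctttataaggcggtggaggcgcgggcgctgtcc
FN1: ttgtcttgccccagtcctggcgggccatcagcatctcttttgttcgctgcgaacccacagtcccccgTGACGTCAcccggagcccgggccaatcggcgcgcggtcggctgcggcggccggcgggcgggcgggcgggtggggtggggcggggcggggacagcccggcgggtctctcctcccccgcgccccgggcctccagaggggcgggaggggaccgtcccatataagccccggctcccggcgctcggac
The element was found in 4.13% of the 339 matched genes of this set, in 2.86% of the 385 matched genes of the set with the other direction, and in 3.20% of the 12112 matched genes tested. The AP-1 motif TGANTCA, bound by FOS and JUN factors, was found in 7.37%, 9.61% and 6.46% of the same 3 groups of genes. Over all 35116 windows of the table the shares of windows were 1.65% and 6.57%. Both strands were searched, a single position cannot match both motifs, and a match describes letters only.

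The other leading genes of this direction had low levels in sh-B. ABCC2, an efflux transporter gene, was at 8.02, 7.45 and 8.46 CPM in control, 13.6, 34.1 and 30.6 CPM with sh-A and 1.89, 1.75 and 1.65 CPM with sh-B (log2 difference 3.88, SE 0.30, edgeR adjusted p = 1.1e-06). PADI3, an enzyme that citrullinates proteins, was at 9.28, 40.4 and 36.9 CPM in sh-A 3, 4 and 5 and 0.776, 2.11 and 2.00 CPM in sh-B (log2 difference 4.12, SE 0.51, edgeR adjusted p = 4.2e-05). In sh-A 3 PADI3 lay within the control range of 8.93, 6.23 and 10.3 CPM, so its rise rests on sh-A 4 and sh-A 5. C15orf48, a small mitochondrial protein gene, was at 6.19, 5.71 and 6.65 CPM in control, 13.3, 24.2 and 23.1 CPM with sh-A and 4.32, 1.35 and 1.78 CPM with sh-B (log2 difference 3.04, SE 0.35, edgeR adjusted p = 2.4e-05). ANXA8, an annexin with near-identical copies and so uncertain, averaged 5.83, 44.9 and 1.76 CPM in control, sh-A and sh-B (log2 difference 4.67, SE 0.30, edgeR adjusted p = 3.1e-07).

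In ROBO1 and HEY1 sh-A 3 was well above the other sh-A libraries. ROBO1, a receptor for SLIT guidance cues, was at 69.4, 13.9 and 15.6 CPM in sh-A 3, 4 and 5, 5.88, 7.32 and 5.52 CPM in control and 1.26, 0.517 and 0.401 CPM in sh-B. Its difference was 5.53 (SE 0.68, edgeR adjusted p = 3.8e-05) and 4.37 without sh-A 3. HEY1, a transcriptional repressor downstream of Notch, was at 55, 24.2 and 23.1 CPM in sh-A, 10.8, 10.4 and 10.3 CPM in control and 4.61, 3.62 and 3.30 CPM in sh-B, a difference of 3.15 (SE 0.31, edgeR adjusted p = 6.3e-06) and 2.63 without sh-A 3. Both stayed above every control library in sh-A 4 and sh-A 5.

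In the other direction NCEH1, a neutral cholesterol ester hydrolase, was at 80.5, 88.5 and 72.2 CPM in control, 28.3, 33 and 31.6 CPM in sh-A 3, 4 and 5 and 258, 236 and 230.0 CPM in sh-B 3, 4 and 5. RHOD, a small GTPase of endosomes and actin, was at 40.0, 35.8 and 47 CPM in control, 11.5, 14.9 and 15.6 CPM with sh-A and 100, 112 and 117 CPM with sh-B. The sh-A minus sh-B differences were -2.96 (SE 0.10, edgeR adjusted p = 4.7e-09) and -2.97 (SE 0.14, edgeR adjusted p = 4.3e-08), and neither gene overlapped between groups. FBP1, the fructose bisphosphatase of gluconeogenesis, stood at 12.2, 13.2 and 12.9 CPM in control, 3.94, 6.17 and 6.43 CPM with sh-A and 43, 44.8 and 47.2 CPM with sh-B (log2 difference -3.03, SE 0.15, edgeR adjusted p = 6.5e-08). DKK1, a secreted Wnt inhibitor, went from 57, 59.3 and 57.8 CPM in control to 26.9, 18.8 and 16.4 CPM with sh-A and 165, 117 and 108 CPM with sh-B (log2 difference -2.65, SE 0.19, edgeR adjusted p = 5.7e-07). GSN, the actin-severing protein gelsolin, went from 66.2, 50.3 and 73.4 CPM in control to 17.2, 26.4 and 31.1 CPM with sh-A and 95.8, 139.8 and 152 CPM with sh-B (log2 difference -2.37, SE 0.24, edgeR adjusted p = 7.1e-06). Libraries of each group kept the same order in all of these genes, with sh-A lowest and sh-B highest. The choice of the genes largely fixed that order.

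SDPR, a caveolar coat protein gene, averaged 8.68, 3.52 and 19.5 CPM in control, sh-A and sh-B (log2 difference -2.47, SE 0.20, edgeR adjusted p = 1.4e-06). The non-coding genes LINC00888 and LINC-ROR averaged 15.6, 4.53 and 30.1 CPM and 5.35, 2.33 and 10.5 CPM in control, sh-A and sh-B, with differences of -2.73 (SE 0.16, edgeR adjusted p = 1.6e-07) and -2.17 (SE 0.16, edgeR adjusted p = 6.3e-07). TNFRSF6B, a decoy receptor for FAS ligand, was at 7.49, 3.85 and 7.90 CPM in control, 0.945, 1.46 and 3.25 CPM in sh-A and 12.1, 20.6 and 22.8 CPM in sh-B (log2 difference -3.27, SE 0.48, edgeR adjusted p = 0.00014). It overlaps a read-through transcript of RTEL1, and DNAJC25, a co-chaperone gene with a read-through transcript of its own, averaged 38.8, 16.3 and 73.8 CPM in control, sh-A and sh-B (log2 difference -2.18, SE 0.13, edgeR adjusted p = 1.9e-07). Both values are uncertain, because the authors' counting could split reads between the overlapping models.

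**Figure D2:**
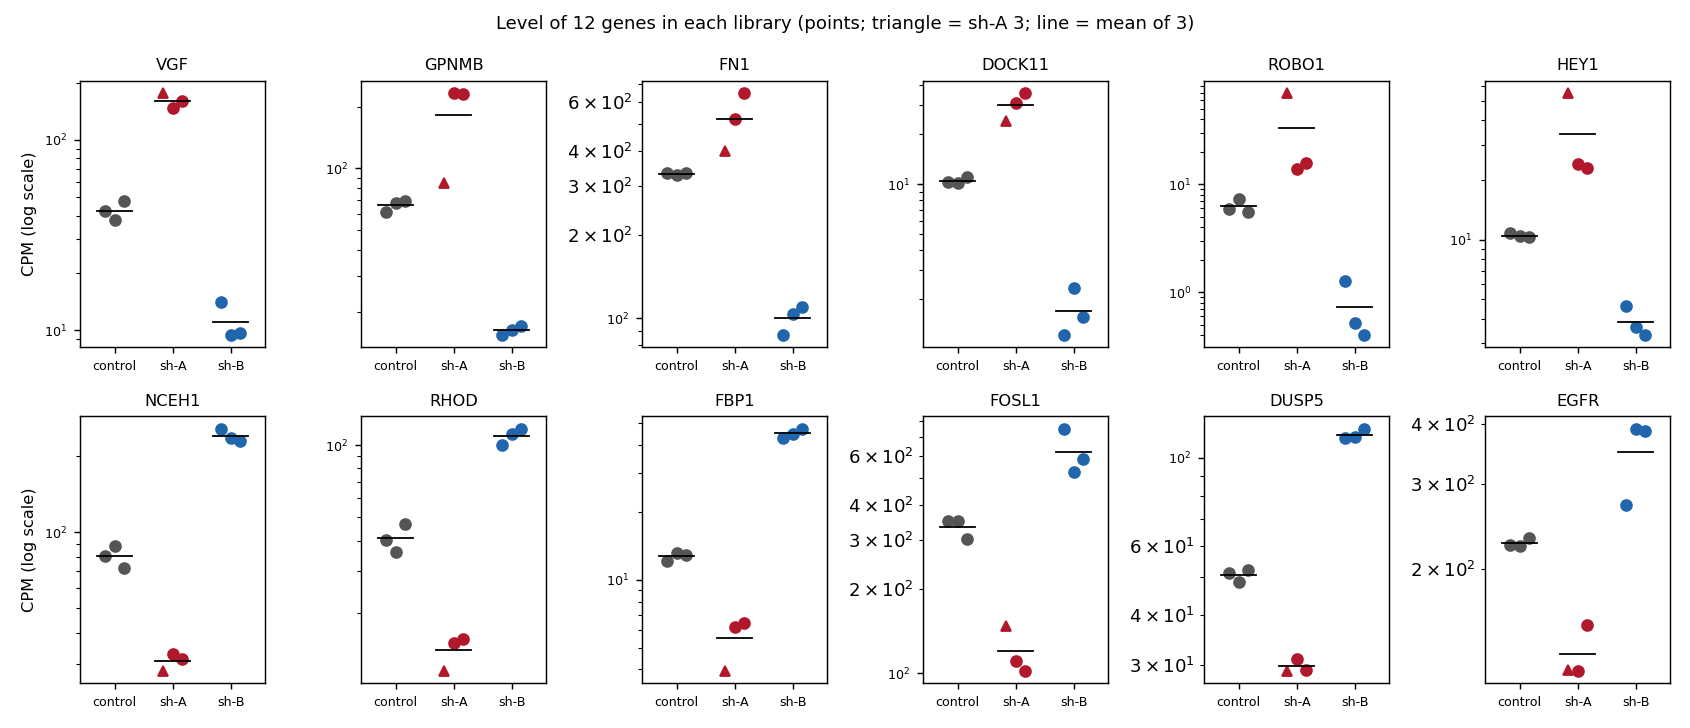
Levels in CPM on a log axis for 12 genes that moved in opposite directions, 1 panel a gene, with control, sh-A and sh-B on the x axis, 1 point a library and a line at the mean of 3. Triangles mark sh-A 3, which at 69.4 CPM for ROBO1 and 55.0 CPM for HEY1 stands above the other sh-A libraries and for GPNMB, DOCK11 and FN1 stands below them.

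Genes that report output of the MAPK pathway were mostly lower in sh-A than in sh-B. The pathway runs from receptors such as EGFR through RAS, RAF, MEK and ERK, and ERK switches on both growth genes and its own inhibitors, the DUSP phosphatases and the Sprouty and SPRED proteins. Of 28 genes tested, 19 (67.9%) were lower in sh-A and 5 higher, with a median of -0.76, beside 22.2%, 25.3% and 0.02 over all genes. Of the 28, 10 (35.7%) were opposite, against 5.84% of all genes. The list was chosen with earlier results of these data known, so its count is a description.

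Among the inhibitors, DUSP5 stood at 51.3, 48.5 and 52.1 CPM in control, 29, 31.1 and 29 CPM with sh-A and 112, 113 and 119 CPM with sh-B (log2 difference -1.95, SE 0.07, edgeR adjusted p = 8.6e-09). SPRY1 stood at 5.66, 6.68 and 5.80 CPM, 4.35, 3.79 and 3.66 CPM and 15.8, 18.6 and 16.6 CPM in the same order (log2 difference -2.11, SE 0.13, edgeR adjusted p = 2.1e-07). Both fell with sh-A and rose with sh-B, as did SPRY4 (-0.69 and 0.81 against control). DUSP6 (0.02 and 1.49), SPRY2 (-0.03 and 0.85) and DUSP4 (0.21 and 0.76) rose with sh-B and were not called with sh-A. SPRED1 (-0.81 and 0.08) fell with sh-A and was not called with sh-B.

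Among the transcription factors, FOSL1, the FRA1 subunit of AP-1, was at 351, 351 and 302 CPM in control, 148, 111 and 102 CPM with sh-A and 752, 524 and 584 CPM with sh-B (log2 difference -2.36, SE 0.16, edgeR adjusted p = 3.4e-07). The ETS factor genes ETV1 (log2 difference -2.26, SE 0.23) and ETV4 (log2 difference -1.02, SE 0.09) were opposite as well, and ETV5 rose with both hairpins, more with sh-B (0.39 and 0.90 against control). MYC stood at 357, 374 and 343 CPM in control, 561, 319 and 289 CPM in sh-A 3, 4 and 5 and 914, 526 and 579 CPM in sh-B 3, 4 and 5. It was highest in the library numbered 3 of each hairpin. Its difference of -0.79 (SE 0.24, edgeR adjusted p = 0.016) lost the call without sh-A 4, sh-A 5 or sh-B 3, at edgeR adjusted p of 0.061, 0.062 and 0.075. CCND1, which encodes cyclin D1, was at 265, 260.3 and 258 CPM, 169, 164 and 174 CPM and 372, 350.4 and 355 CPM in control, sh-A and sh-B (log2 difference -1.09, SE 0.07, edgeR adjusted p = 2.1e-07). PHLDA2 (log2 difference -1.42, SE 0.13) and IER3 (log2 difference -0.73, SE 0.11) were opposite too.

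The 5 members higher in sh-A were VGF, EREG, EPHA4, TFPI2 and CXCL8. CXCL8, a chemokine gene, rose with both hairpins (2.08 and 1.14), TFPI2, a protease inhibitor, fell with sh-B (-2.59), and EPHA4 rose with sh-A (4.30). EPHA4 averaged 0.201 CPM in control and CXCL8 0.543 CPM.

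The receptor EGFR, upstream of the pathway, also moved both ways. EGFR stood at 225, 223 and 232 CPM in control, 123, 123 and 153 CPM with sh-A and 271, 392 and 386 CPM with sh-B (log2 difference -1.40, SE 0.15, edgeR adjusted p = 1.3e-05). The groups did not overlap, though sh-B 3 was below sh-B 4 and sh-B 5. NRG1, a ligand of ERBB3 and ERBB4, was opposite in the same direction, at 17.8, 18.9 and 19.7 CPM in control, 14, 12 and 10.6 CPM with sh-A and 33, 29.4 and 30.6 CPM with sh-B (log2 difference -1.35, SE 0.10, edgeR adjusted p = 9.8e-07). Of 13 EGFR family receptors, ligands and regulators tested, 5 were lower in sh-A (38.5%) and 2 higher (15.4%). The shares of all genes were 22.2% and 25.3%.

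The ligands did not move as a block. AREG, amphiregulin, was at 34, 34.2 and 33.4 CPM in control, 9.69, 8.79 and 7.66 CPM with sh-A and 47.4, 34.7 and 35.6 CPM with sh-B (log2 difference -2.17, SE 0.13, edgeR adjusted p = 2.1e-07). It fell with sh-A and was not called with sh-B (edgeR adjusted p = 0.22). EREG, epiregulin, rose with both hairpins and more with sh-A, from 18.5, 18 and 19 CPM in control to 32.9, 31.1 and 31.8 CPM with sh-A and 24.3, 23.7 and 24.7 CPM with sh-B (log2 difference 0.40, SE 0.07, edgeR adjusted p = 0.00054). TGFA rose with sh-B and stood at 30.7, 32.6 and 32.8 CPM in control, 19.7, 27.8 and 28.9 CPM with sh-A and 48.7, 55.6 and 53.2 CPM with sh-B (log2 difference -1.04, SE 0.12, edgeR adjusted p = 2.5e-05). ERRFI1, the feedback inhibitor of EGFR also called MIG6, was at 313, 305 and 330.2 CPM in control, 123, 146 and 151 CPM with sh-A and 385, 358 and 366 CPM with sh-B (log2 difference -1.40, SE 0.09, edgeR adjusted p = 2.4e-07). BTC, at 0.846 CPM in control, was higher in sh-A (log2 difference 1.42, SE 0.36), and ERBB2, ERBB3, EGF, HBEGF, EPGN and NRG4 were not called.

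By transcript length, in deposited FPKM, the order of the family also differed between the hairpins. ERRFI1 averaged 46.6 ± 6.11 FPKM (SD, n = 3) with sh-A and 115 ± 0.828 with sh-B, and EGFR 24.7 ± 3.50 and 61.2 ± 14 FPKM. Among the ligands, AREG averaged 7.29 ± 0.710 FPKM with sh-A and did not differ beyond the spread from EREG at 7.19 ± 0.0700 FPKM or TGFA at 6.16 ± 1.35 FPKM. With sh-B AREG averaged 30.7 ± 4.23 FPKM, above NRG1 at 14.3 ± 0.173, TGFA at 11.9 ± 1.26 and EREG at 5.12 ± 0.212 FPKM. In control AREG was likewise the highest ligand, at 27.2 ± 0.0473 FPKM.

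**Figure D3:**
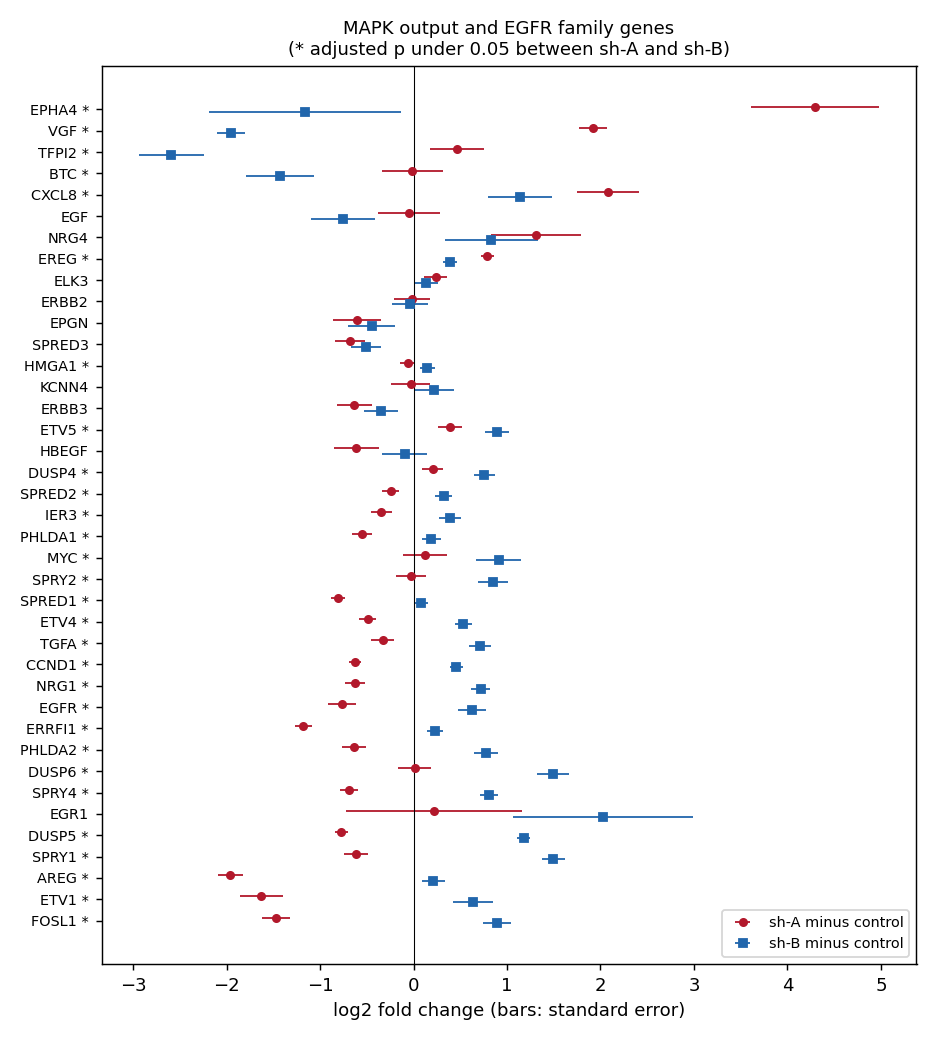
Log2 fold change against control with its standard error for the MAPK output and EGFR family genes, sh-A in red and sh-B in blue, ordered by sh-A minus sh-B. For most genes in the lower part, such as DUSP5, SPRY1 and FOSL1, the points lie on opposite sides of 0, and VGF near the top lies the other way round.

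Other receptor tyrosine kinases went in both directions, 8 higher (42.1%) and 5 lower (26.3%) in sh-A of 19 tested, beside 25.3% and 22.2% of all genes. Among the 16 with at least 1 CPM in control, 5 were higher and 5 lower. FGFR3 was opposite, at 4.88, 4.75 and 5.56 CPM in control, 13, 8.79 and 8.37 CPM with sh-A and 1.89, 2.07 and 1.87 CPM with sh-B (log2 difference 2.37, SE 0.22, edgeR adjusted p = 5.1e-06). AXL, a receptor linked to resistance to EGFR inhibitors, was at 28, 26.6 and 23.8 CPM in control, 52.3, 24.2 and 21.8 CPM with sh-A and 12.4, 10.0 and 8.59 CPM with sh-B (log2 difference 1.67, SE 0.28, edgeR adjusted p = 0.00036). The fall with sh-B was called (-1.34), sh-A was not called (0.33), and sh-A 3 stood above every control while sh-A 4 and sh-A 5 did not. MET was lower in sh-A, at 389, 411 and 481 CPM against 567, 679 and 675 CPM (log2 difference -0.58, SE 0.10, edgeR adjusted p = 0.00033), and EPHA2 too (log2 difference -0.70, SE 0.11). ROR2, a receptor for WNT5A, was higher in sh-A, at 2.55, 0.729 and 0.486 CPM against 0, 0 and 0.0445 CPM, and too few sh-B counts were seen for a fold.

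Mesenchymal and matrix genes were mostly higher in sh-A. Of 27 tested, 20 (74.1%) were higher and 2 lower, with a median of 0.73, made of 0.53 for sh-A minus control and -0.76 for sh-B minus control. Among all genes 25.3% were higher in sh-A and 22.2% lower. The list holds matrix proteins, their receptors, contractile proteins and transcription factors of the mesenchymal state. COL6A2, a collagen VI chain, stood at 18.3, 17.7 and 21.1 CPM in control, 29.2, 33.3 and 33.4 CPM with sh-A and 4.66, 3.34 and 2.94 CPM with sh-B (log2 difference 3.14, SE 0.15, edgeR adjusted p = 4.2e-08). ACTA2, smooth muscle actin, was at 2.27, 1.93 and 2.06 CPM in control, 4.15, 4.37 and 4.34 CPM with sh-A and 0.679, 0.875 and 1.07 CPM with sh-B (log2 difference 2.28, SE 0.21, edgeR adjusted p = 3.7e-06). With FN1 these are the 3 members that rose with sh-A and fell with sh-B. COL5A1 averaged 72.9, 100 and 18.3 CPM in control, sh-A and sh-B (log2 difference 2.45, SE 0.20, edgeR adjusted p = 1.9e-06), its fall with sh-B called and sh-A not called against control.

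The 2 members lower in sh-A were VIM and TNC. VIM, the intermediate filament vimentin, was at 275, 263 and 252 CPM in control, 534, 307 and 296 CPM in sh-A 3, 4 and 5 and 1095, 543 and 569.9 CPM in sh-B 3, 4 and 5 (log2 difference -0.96, SE 0.26, edgeR adjusted p = 0.0096). The highest library of each hairpin was again the one numbered 3. TNC, the matrix protein tenascin C, fell with sh-A and rose with sh-B, at 783, 766 and 729.5 CPM in control, 474, 430.3 and 537 CPM with sh-A and 957, 874 and 871 CPM with sh-B (log2 difference -0.91, SE 0.09, edgeR adjusted p = 5.1e-06).

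Among the 20 higher members CDH2, ZEB2, TWIST1, COL4A1, COL4A2 and FBN1 had under 1 CPM in control. Among the 21 members with at least 1 CPM in control, 14 were higher in sh-A and 2 lower, with a median of 0.69. In 7 of the 20, sh-A 3 was at least 2 times the average of its group mates. Genes typical of the HEK293 kidney line, described further on, were also highest in sh-A 3, with summed levels of 332, 69.5 and 71.4 CPM in sh-A 3, 4 and 5 and 19.2 to 24.5 CPM in the other libraries. In bulk RNA, more cells of a type and more RNA per cell cannot be told apart. Fibroblast markers summed to 28.9 to 32.1 CPM with sh-A, 15.5 to 16.2 CPM with sh-B and 25.1 to 28.8 CPM in control, with at most 2 of 12 reaching 1 CPM and DCN at or near 0. COL1A1, which is in both lists, makes up most of these sums, and the part of both marker lists in the result was not tested.

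Epithelial genes went mainly the other way. Of 30 tested, 14 (46.7%) were lower in sh-A and 5 (16.7%) higher, beside 22.2% and 25.3% of all genes, with a median of -0.32. Against control, 16 fell and 0 rose with sh-A, beside 12.3% and 14.4% of all genes. With sh-B 9 fell and 2 rose, beside 15% of all genes each way. CDH1, E-cadherin, was at 708, 708 and 722 CPM in control, 129, 211 and 216 CPM with sh-A and 554, 663 and 688 CPM with sh-B (log2 difference -1.78, SE 0.16, edgeR adjusted p = 3.7e-06). Its fall was seen with sh-A, and sh-B was not called (edgeR adjusted p = 0.46). ST14, the membrane protease matriptase, fell with sh-A and rose with sh-B, at 503, 487 and 549 CPM in control, 103, 168 and 173 CPM with sh-A and 640.5, 767 and 801 CPM with sh-B (log2 difference -2.31, SE 0.17, edgeR adjusted p = 7.7e-07). Its inhibitor SPINT1 was at 117, 116 and 122 CPM in control, 26.2, 44.3 and 41.9 CPM with sh-A and 123, 112 and 125 CPM with sh-B (log2 difference -1.68, SE 0.15, edgeR adjusted p = 4.2e-06). In all 3 genes sh-A 3 was the lowest library. The tight junction gene OCLN was opposite (log2 difference -1.33, SE 0.10).

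The 5 epithelial members higher in sh-A were OVOL2, PRSS8, RAB25, ELF3 and CGN, and each of them fell with sh-B. RAB25, a vesicle GTPase of epithelia, averaged 1.10, 0.714 and 0.0575 CPM in control, sh-A and sh-B, and PRSS8, prostasin, 7.10, 5.95 and 0.941 CPM in control, sh-A and sh-B. These 5 are named because the count is small, after their values were seen.

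Connexin genes, which form gap junction channels, went both ways. GJA1, connexin 43, was at 66.7, 65.2 and 58.9 CPM in control, 33.7, 26.4 and 28.1 CPM with sh-A and 3.64, 2.47 and 2.27 CPM with sh-B (log2 difference 3.41, SE 0.15, edgeR adjusted p = 3.4e-08). It fell with both hairpins, far more with sh-B. GJB2, connexin 26, was at 2.74, 3.21 and 2.66 CPM in control, 3.16, 1.51 and 1.72 CPM with sh-A and 10.5, 11.2 and 11.5 CPM with sh-B (log2 difference -2.37, SE 0.23, edgeR adjusted p = 6.3e-06). GJB2 rose with sh-B. GJC1 was lower in sh-A (log2 difference -1.05, SE 0.07). Of 17 gap and adherens junction genes tested, 8 (47.1%) were lower in sh-A and 3 (17.6%) higher, beside 22.2% and 25.3% of all genes.

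Genes induced by interferon were higher in sh-A than in sh-B, and most of them fell with sh-B. Of 43 tested, 27 (62.8%) were higher in sh-A and 2 (4.65%) lower, beside 25.3% and 22.2% of all genes, with a median of 0.78. With sh-B 33 fell and 0 rose, beside 15% of all genes each way. With sh-A 6 fell and 1 rose, beside 12.3% and 14.4% of all genes, so the 6 lie near the share of all genes. IFI16, a nuclear DNA sensor, was the member that rose with sh-A and fell with sh-B, at 249.8, 297 and 296 CPM in control, 294, 474 and 487 CPM with sh-A and 81.6, 77.5 and 78.3 CPM with sh-B (log2 difference 2.40, SE 0.17, edgeR adjusted p = 4.7e-07). GBP1, a guanylate-binding protein, was at 32.5, 33.8 and 35.5 CPM in control, 22.7, 36.4 and 40.9 CPM with sh-A and 11.3, 8.59 and 8.68 CPM with sh-B (log2 difference 1.81, SE 0.19, edgeR adjusted p = 1e-05). For IFI16 sh-A 3 lay within the control range, and for GBP1 the sh-A libraries spanned it, while sh-B lay below the controls for both.

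IFI27 was at 29.1, 30.7 and 47.4 CPM in control, 9.24, 20.3 and 33.5 CPM with sh-A and 3.10, 2.66 and 2.67 CPM with sh-B (log2 difference 2.90, SE 0.39, edgeR adjusted p = 7.6e-05). EPSTI1 (log2 difference 2.33, SE 0.34) and DDX60L (log2 difference 0.85, SE 0.14) were higher in sh-A as well. The list median against control was -1.28, -0.24 and 0.19 in sh-A 3, 4 and 5 and -1.14, -1.12 and -1.09 in sh-B 3, 4 and 5 (log2 of CPM with 0.1 added). For this list sh-A 3 lay with the sh-B libraries, and the count of 27 was 33 without sh-A 3 and 16 without sh-A 5.

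MHC class I genes, which present peptides to T cells, differed in both directions. Of 22 tested, 5 were higher in sh-A (22.7%) and 2 lower (9.09%), beside 25.3% and 22.2% of all genes. Without sh-A 3 the 5 became 10. HLA-B fell with sh-B, at 169, 146 and 179 CPM in control, 109.7, 159.7 and 180.5 CPM with sh-A and 78.9, 80.5 and 82.5 CPM with sh-B (log2 difference 0.90, SE 0.16, edgeR adjusted p = 0.00062), and HLA-C followed it (log2 difference 0.68, SE 0.09). HLA genes share sequence, so single values are uncertain. PSMB9, an immunoproteasome subunit, and TAPBP, tapasin, were higher in sh-A (log2 differences 0.77, SE 0.18, and 0.53, SE 0.12).

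Among NF-kB targets and cytokines 16 of 27 (59.3%) were higher in sh-A and 3 (11.1%) lower, with a median of 0.69. The shares of all genes were 25.3% and 22.2%. The complement genes CFB and C3 rose with sh-A and fell with sh-B. C3, the central complement protein, was at 4.23, 3.27 and 4.84 CPM in control, 46.9, 83.9 and 88.8 CPM with sh-A and 2.57, 0.915 and 1.60 CPM with sh-B (log2 difference 5.46, SE 0.33, edgeR adjusted p = 2e-07). CFB was at 9.32, 9.25 and 11.3 CPM in control, 16.6, 50.5 and 47.5 CPM with sh-A and 3.93, 5.01 and 4.50 CPM with sh-B (log2 difference 3.09, SE 0.33, edgeR adjusted p = 1.4e-05). Both were lowest in sh-A 3 among the sh-A libraries. LCN2, the iron-trapping protein lipocalin 2, was at 0.174, 0.193 and 0.161 CPM in control, 3.57, 11.1 and 13.8 CPM with sh-A and 0, 0.0398 and 0.134 CPM with sh-B, near the limit of counting outside sh-A, so no fold is given. IL24, a cytokine, fell with both hairpins, from 19.3, 16.6 and 18 CPM in control to 5.22, 8.50 and 6.95 CPM with sh-A and 0.873, 0.795 and 0.891 CPM with sh-B (log2 difference 3.00, SE 0.20, edgeR adjusted p = 4e-07), and LIF was lower in sh-A (log2 difference -0.63, SE 0.08). Among the 18 members with at least 1 CPM in control, 8 were higher and 3 lower, with a median of 0.31.

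YAP/TEAD targets, the readout of the Hippo pathway, split. Of 23 tested, 10 (43.5%) were lower in sh-A and 6 (26.1%) higher, beside 22.2% and 25.3% of all genes. Without sh-A 3, 12 were lower and 6 higher, and the median moved from -0.08 to -0.46. WWC1, also called KIBRA, an upstream regulator of that pathway, was at 138, 141 and 132 CPM in control, 51.7, 56.9 and 55.6 CPM with sh-A and 173, 159.8 and 157 CPM with sh-B (log2 difference -1.58, SE 0.07, edgeR adjusted p = 4.2e-08). AJUBA (log2 difference -0.91, SE 0.08), CRIM1 (log2 difference -1.15, SE 0.13) and the ectonucleotidase gene NT5E (log2 difference -0.78, SE 0.08) were opposite in the same direction, and TGFB2 the other way (log2 difference 0.96, SE 0.13). AMOTL1 fell with sh-B, at 41.8, 41.5 and 44.1 CPM in control, 46.4, 33.4 and 38.1 CPM with sh-A and 4.75, 8.71 and 7.88 CPM with sh-B (log2 difference 2.46, SE 0.19, edgeR adjusted p = 9.5e-07). The canonical targets CTGF, CYR61 and ANKRD1, named after their values were seen, were not called between the hairpins (log2 1.19, -0.08 and 0.07). CTGF and CYR61 were far higher in the library numbered 3 of each hairpin than in its mates, CYR61 at 153, 40.4 and 39.2 CPM in sh-A 3, 4 and 5 and 138, 53.5 and 55.8 CPM in sh-B 3, 4 and 5.

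Matrix proteases and regulators of plasminogen gave 8 higher (44.4%) and 6 lower (33.3%) of 18, with a median of 0.27, beside 25.3% and 22.2% of all genes. The direction turned among the 12 members with at least 1 CPM in control, where 2 were higher and 6 lower, with a median of -0.26. PLAU, urokinase, was opposite, at 263, 254 and 267 CPM in control, 166, 218 and 215 CPM with sh-A and 543, 439.7 and 469 CPM with sh-B (log2 difference -1.28, SE 0.11, edgeR adjusted p = 3.2e-06). MMP24 fell with sh-B (log2 difference 1.28, SE 0.17), and the 6 lower members became 3 without sh-B 5. Of the 8 higher members 6 were under 1 CPM in control, among them SERPINE2, ADAMTS1 and MMP2, which averaged 3.51, 5.79 and 1.60 CPM with sh-A. TIMP3, SERPINE2 and ADAMTS1 belong to a block of genes seen almost only in sh-A and highest in sh-A 3, described further on, with ADAMTS1 at 11.6, 2.72 and 3.06 CPM in sh-A 3, 4 and 5.

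Histone genes were more often higher in sh-A than the 25.3% of all genes. Of 16 replication-dependent histone genes tested, 11 (68.8%) were higher and 0 lower, with a median of 0.93, 1.22 for sh-A and 0.22 for sh-B against control. HIST1H2BD stood at 14.8, 13.1 and 15.2 CPM in control, 30.8, 35.3 and 38.6 CPM with sh-A and 12.6, 11.2 and 10.5 CPM with sh-B (log2 difference 1.61, SE 0.12, edgeR adjusted p = 7.9e-07). HIST2H2BE was opposite, at 9.19, 10.2 and 8.67 CPM in control, 13.6, 20.9 and 21 CPM with sh-A and 6.16, 5.57 and 5.03 CPM with sh-B (log2 difference 1.73, SE 0.16, edgeR adjusted p = 5.3e-06). HIST1H2BK rose with both hairpins and more with sh-A, at 45.3, 36.9 and 42.5 CPM in control, 109, 119 and 123 CPM with sh-A and 73.6, 56.9 and 61.4 CPM with sh-B (log2 difference 0.87, SE 0.11, edgeR adjusted p = 5.9e-05). Most of these messages lack a poly-A tail and have close copies, so their values in oligo(dT)-selected RNA are uncertain. SLBP, the protein that binds the end of these messages, was lower in sh-A (log2 difference -0.48, SE 0.07).

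Of the 18 subunits of the NuA4/TIP60 complex, 6 were higher in sh-A (33.3%), KAT5 among them, and 2 lower (11.1%). The shares of all genes were 25.3% and 22.2%. VPS72, which loads H2A.Z, was the only opposite member by the test, at 57.9, 56.4 and 56.4 CPM in control, 86, 78.2 and 74.9 CPM with sh-A and 39.1, 35.1 and 41.5 CPM with sh-B (log2 difference 1.05, SE 0.08, edgeR adjusted p = 9.9e-07). ACTL6A, an actin-like subunit shared with chromatin remodellers, rose with sh-B, at 138, 141 and 126 CPM in control, 138, 132 and 134 CPM with sh-A and 221, 193 and 188 CPM with sh-B (log2 difference -0.57, SE 0.08, edgeR adjusted p = 9.2e-05). MEAF6 was lower in sh-A (log2 difference -0.42, SE 0.11) and EPC2 higher (log2 difference 0.41, SE 0.11). Without sh-A 3 the 6 higher became 4 and the 2 lower became 6, and the median moved from 0.11 to -0.01. With the replicate number as a block, in a fit of the sh-A and sh-B libraries alone, 5 were higher and 5 lower.

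Cell cycle genes were called about as often as all genes. Among 33 genes of the G1/S transition 8 (24.2%) were higher in sh-A and 6 (18.2%) lower, beside 25.3% and 22.2% of all genes. CCND1 belonged to the opposite genes lower in sh-A, and MCM7 to those higher in sh-A. MCM7, a helicase subunit of replication, rose with sh-A and fell with sh-B, at 444, 415 and 418 CPM in control, 510.1, 492 and 495 CPM with sh-A and 338, 334 and 348 CPM with sh-B (log2 difference 0.55, SE 0.07, edgeR adjusted p = 4.3e-05). CDK6 (log2 difference -0.71, SE 0.10) and RFC4 (log2 difference -0.68, SE 0.10) were lower in sh-A. The 8 became 5 without sh-A 4 or sh-B 4, and the 6 became 13 without sh-A 3.

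Among 34 mitotic genes 8 (23.5%) were higher and 10 (29.4%) lower, shares near the 25.3% and 22.2% of all genes. ANLN, anillin of the cleavage furrow, fell with both hairpins and more with sh-A, averaging 1430.0, 659 and 1193 CPM in control, sh-A and sh-B (log2 difference -0.86, SE 0.09, edgeR adjusted p = 1.1e-05). ECT2, which directs RHOA in cytokinesis, rose with sh-B, at 223, 236 and 207 CPM in control, 211, 217 and 217 CPM with sh-A and 358, 372 and 361 CPM with sh-B (log2 difference -0.76, SE 0.07, edgeR adjusted p = 3.4e-06). CDK1 was opposite (-0.23 and 0.40 against control), and BUB3 (log2 difference -0.62, SE 0.08) and CDC20 (log2 difference -0.60, SE 0.09) were lower in sh-A.

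Of 24 p53 targets 8 (33.3%) were higher in sh-A and 5 (20.8%) lower, the latter 8 without sh-A 3, beside 25.3% and 22.2% of all genes. BTG2, an antiproliferative gene, rose with sh-A, at 1.92, 1.80 and 1.77 CPM in control, 10.9, 8.26 and 8.63 CPM with sh-A and 0.728, 1.43 and 1.38 CPM with sh-B (log2 difference 2.96, SE 0.24, edgeR adjusted p = 1.5e-06), and ZMAT3 rose with sh-B (log2 difference -1.06, SE 0.13). GDF15, a stress-induced hormone, was higher in sh-A (log2 difference 1.31, SE 0.23), and PLK3 (log2 difference -1.10, SE 0.14) and TP53I3 (log2 difference -0.49, SE 0.10) lower. CDKN1A, the cell cycle inhibitor p21, did not pass the test, at 32.5, 38.8 and 37.1 CPM with sh-A and 37, 31 and 32.6 CPM with sh-B (log2 difference 0.11, SE 0.11, edgeR adjusted p = 0.47).

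Of a list of 29 genes driven by MYC, 9 (31.0%) were lower in sh-A and 3 (10.3%) higher, beside 22.2% and 25.3% of all genes. The list was drawn up for nucleolar genes but also holds LDHA, which is not nucleolar and is 1 of the 9. The 9 became 4 without sh-A 4, sh-A 5 or sh-B 3. POLR1B rose with both hairpins and more with sh-B (log2 difference -0.28, SE 0.07), WDR12 was lower in sh-A (log2 difference -0.53, SE 0.11), and FBL (log2 difference 0.70, SE 0.16) and UTP20 (log2 difference 0.66, SE 0.12) were higher.

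In energy metabolism the lactate-producing enzyme gene LDHA was at 2628, 2665 and 2591 CPM in control, 1825, 1779 and 1814 CPM with sh-A and 3519, 3440.4 and 3435 CPM with sh-B (log2 difference -0.94, SE 0.06, edgeR adjusted p = 3.2e-07). HK1, a hexokinase, was opposite in the same direction, at 203, 188 and 192 CPM in control, 166, 166 and 165 CPM with sh-A and 239, 239 and 247 CPM with sh-B (log2 difference -0.54, SE 0.06, edgeR adjusted p = 2.4e-05). BNIP3, a mitophagy receptor induced by hypoxia, was too, at 117, 108 and 111 CPM in control, 61.4, 68.9 and 66.8 CPM with sh-A and 158, 155 and 161 CPM with sh-B (log2 difference -1.27, SE 0.08, edgeR adjusted p = 2.8e-07). None of these 3 genes overlapped between groups. Of 26 hypoxia and glycolysis genes 11 (42.3%) were lower in sh-A and 6 (23.1%) higher, beside 22.2% and 25.3% of all genes. The 11 became 7 without sh-B 4 and 6 without sh-B 5. SLC2A3, a glucose transporter, and ALDOC, a brain-type aldolase, fell with sh-B (log2 differences 2.31, SE 0.25, and 2.06, SE 0.24).

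Oxidative phosphorylation gave 7 higher (23.3%) and 9 lower (30%) of 30, with a median difference of -0.08, beside 25.3%, 22.2% and 0.02 over all genes. SDHD (log2 difference -0.82, SE 0.11) and UQCRFS1 (log2 difference -0.64, SE 0.08) fell with sh-A and rose with sh-B. CYC1, cytochrome c1, fell with sh-A, at 77.7, 65.2 and 78.2 CPM in control, 38.2, 29 and 29.9 CPM with sh-A and 79.7, 84.8 and 90.5 CPM with sh-B (log2 difference -1.39, SE 0.14, edgeR adjusted p = 7.4e-06), and SDHC was higher in sh-A (log2 difference 0.56, SE 0.07).

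Targets of ATF4, the factor of the amino acid stress response, were lower in sh-A in 9 of 29 (31.0%) and higher in 4 (13.8%). The shares of all genes were 22.2% and 25.3%. STC2, a secreted glycoprotein, was opposite, at 75.5, 78.2 and 79.7 CPM in control, 65.7, 55.8 and 54.3 CPM with sh-A and 111, 96.2 and 100 CPM with sh-B (log2 difference -0.81, SE 0.09, edgeR adjusted p = 1.6e-05). The lipoprotein receptor gene VLDLR (log2 difference -1.22, SE 0.12), DDIT4 (log2 difference -0.64, SE 0.07) and the amino acid transporter gene SLC38A2 (log2 difference -0.67, SE 0.09) were opposite as well. SLC7A11, the cystine transporter, rose with sh-B, at 40.3, 39.4 and 35.6 CPM in control, 60.7, 41.4 and 45.4 CPM with sh-A and 80.8, 102 and 102 CPM with sh-B (log2 difference -0.95, SE 0.15, edgeR adjusted p = 0.00025). The 9 became 16 without sh-A 3. They became 14 with the replicate number as a block, in a fit of the sh-A and sh-B libraries alone.

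NRF2 targets, which answer oxidative stress, were higher in sh-A in 10 of 23 (43.5%) and lower in 3. HMOX1, heme oxygenase, was opposite, at 89.1, 80.5 and 79 CPM in control, 123, 157 and 147 CPM with sh-A and 40.7, 30.2 and 31.7 CPM with sh-B (log2 difference 2.06, SE 0.15, edgeR adjusted p = 5.9e-07). TXN (log2 difference -0.63, SE 0.12) and TALDO1 (log2 difference -0.72, SE 0.09) were lower in sh-A. The 10 became 6 without sh-A 4. They also became 6 with the replicate number as a block, in a fit of the sh-A and sh-B libraries alone.

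Cholesterol synthesis genes gave 5 higher (22.7%) and 6 lower (27.3%) of 22, near the 25.3% and 22.2% of all genes, and the 5 became 8 without sh-A 3. DHCR7, the last enzyme of the pathway, was opposite, at 61.7, 56.3 and 61.5 CPM in control, 40.5, 41.8 and 43.1 CPM with sh-A and 75.2, 76.5 and 83.3 CPM with sh-B (log2 difference -0.91, SE 0.08, edgeR adjusted p = 4.6e-06), while FDPS fell with sh-B (log2 difference 0.82, SE 0.08). Ribosomal protein genes differed little, with 3 higher (10%) and 4 lower (13.3%) of 30, both below the shares of all genes, and a median of -0.02. Immediate early genes gave 4 higher (17.4%) and 6 lower (26.1%) of 23, with KLF4 (log2 difference -0.90, SE 0.12) and KLF6 (log2 difference -1.08, SE 0.23) lower in sh-A and MCL1 higher (log2 difference 0.48, SE 0.07).

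**Figure D4:**
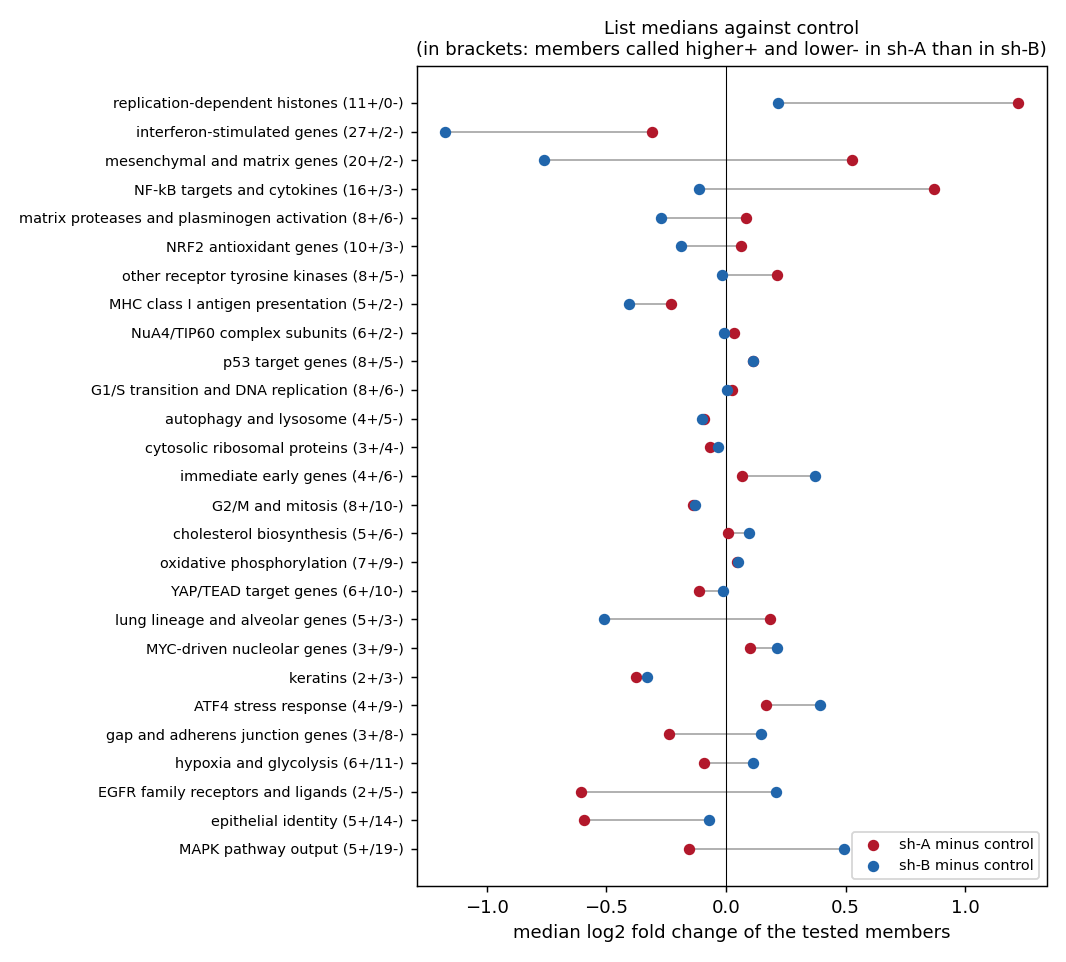
Median log2 fold change against control of the tested members of each gene list, sh-A in red and sh-B in blue, ordered by the median sh-A minus sh-B. Histones, interferon-stimulated genes, mesenchymal and matrix genes and NF-kB targets have the highest medians of sh-A minus sh-B among the lists drawn, which leave out the marker lists of other cells, and MAPK output and the EGFR family have wide gaps with sh-A below.

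Lung lineage genes gave 5 higher and 3 lower of 12, or 41.7% and 25% beside 25.3% and 22.2% of all genes. SOX2, a transcription factor of airway and stem cells, was at 4.01, 3.34 and 4.88 CPM in control and 9.90, 14.2 and 13.1 CPM with sh-A, and at 0.0485, 0 and 0 CPM in sh-B 3, 4 and 5. The sh-B libraries hold so few counts for SOX2 that no fold is given. NAPSA (log2 difference 3.49, SE 0.53) and CEBPA (log2 difference 2.04, SE 0.24) were higher in sh-A, and ABCA3 (log2 difference -0.62, SE 0.14) and SOX9 (log2 difference -0.73, SE 0.10) lower. Keratins gave 2 higher and 3 lower of 11, or 18.2% and 27.3%. KRT19 was lower in sh-A (log2 difference -0.57, SE 0.20), a call lost without sh-B 4 or sh-B 5, at edgeR adjusted p of 0.088 and 0.096.

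Among 26 autophagy and lysosome genes 4 (15.4%) were higher in sh-A and 5 (19.2%) lower, both below the 25.3% and 22.2% of all genes. WDR45B, a phosphoinositide-binding protein of the autophagosome, was at 107, 106 and 106 CPM in control, 19.6, 19.5 and 18.4 CPM in sh-A 3, 4 and 5 and 133, 136 and 132 CPM in sh-B 3, 4 and 5. The sh-A libraries spanned 18.4 to 19.6 CPM, and the difference was -2.80 (SE 0.08, edgeR adjusted p = 5.9e-10). Against control it changed by log2 -2.47 with sh-A and 0.33 with sh-B. LAMP1 (log2 difference -0.60, SE 0.11), CTSB (log2 difference -0.54, SE 0.12) and HEXA (log2 difference -0.40, SE 0.09) were lower in sh-A and ULK1 higher (log2 difference 0.63, SE 0.15).

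Large differences also came from 1 hairpin. Outside the opposite set, the 6 leading genes higher in sh-A each fell with sh-B and were not called with sh-A. That last part rests on sh-A 3 for 4 of them, since without it STRA6, IRX5 and GRAMD1B were called higher with sh-A than control (log2 0.55, 0.64 and 0.79, edgeR adjusted p = 0.022, 0.00084 and 0.0034) and ALPPL2 lower (-0.67, adjusted p = 0.044). STRA6, a receptor for retinol-binding protein, was at 8.67, 6.36 and 8.87 CPM in control, 5.71, 12.6 and 10.9 CPM with sh-A and 0.194, 0.159 and 0.356 CPM with sh-B (log2 difference 5.34, SE 0.37, edgeR adjusted p = 5e-07). CFI, a complement protease, was at 15.8, 15 and 20.8 CPM in control, 4.72, 18 and 18.4 CPM with sh-A and 0.291, 0.557 and 0.846 CPM with sh-B (log2 difference 4.57, SE 0.52, edgeR adjusted p = 2e-05). IRX5, a homeobox gene, was at 13, 11.4 and 12.5 CPM in control, 8.30, 19.3 and 19.1 CPM with sh-A and 0.922, 0.597 and 0.712 CPM with sh-B (log2 difference 4.39, SE 0.32, edgeR adjusted p = 7.6e-07). In these 3 genes sh-A 3 was the lowest sh-A library. GRAMD1B, a sterol transporter (log2 difference 4.39, SE 0.35), and the kinase gene TNIK (log2 difference 4.37, SE 0.45) followed, and ALPPL2 (log2 difference 4.83, SE 0.80) has close copies and is uncertain.

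The 6 leading genes lower in sh-A divided by hairpin. Without sh-A 3, MALL was also called higher with sh-B (log2 0.53, edgeR adjusted p = 0.00052) and CCDC3 also lower with sh-A (-0.97, adjusted p = 0.0057), which would make both opposite. MALL, a membrane raft protein gene, fell with sh-A, at 149.9, 134 and 159 CPM in control, 19.1, 40.3 and 37 CPM with sh-A and 190.3, 218 and 229 CPM with sh-B (log2 difference -2.73, SE 0.21, edgeR adjusted p = 1.1e-06). ANKRD30BP2 (log2 difference -2.20, SE 0.20), MGP (log2 difference -2.25, SE 0.52) and AREG also fell with sh-A and were not called with sh-B. C9orf169 rose with sh-B, at 6.23, 4.88 and 6.61 CPM in control, 4.19, 4.32 and 3.89 CPM with sh-A and 24.2, 31.3 and 36.6 CPM with sh-B (log2 difference -2.89, SE 0.20, edgeR adjusted p = 5e-07), and so did CCDC3 (log2 difference -2.00, SE 0.23).

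A block of genes was seen almost only in sh-A. In 118 genes each library outside sh-A had under 0.3 CPM and sh-A averaged over 3 CPM. Their levels summed to 2145 CPM in sh-A 3, 388.3 and 396.5 CPM in sh-A 4 and sh-A 5, and 2.38 to 4.10 CPM in the others. The median ratio of sh-A 3 to the average of its group mates was 5.34. The choice of these genes fixes that sh-A is above sh-B, and with control so low a fall with sh-B could hardly be called, so their calls are not counted as a result. Leaving them out, a choice made after seeing the data, left 3829 genes higher in sh-A, of which 1624 were at least 2-fold higher. Of the 1742 genes at least 2-fold higher in sh-A, 604 were at least 2 times as high in sh-A 3 as in its group mates on average, and 406 averaged under 0.3 CPM in control. The lower set was made of expressed genes, with at least 5 CPM in control for 445 of 644, against 466 of 1742 for the higher set.

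Markers of other cells were summed in each library. Of 15 genes typical of the HEK293 kidney line, 14 were listed, and they summed to 332, 69.5 and 71.4 CPM in sh-A 3, 4 and 5 and to 19.2 to 24.5 CPM in the other libraries. All 14 had a count in each sh-A library, and 13, 9 and 10 reached 1 CPM in sh-A 3, 4 and 5, against 2 elsewhere, LHX1 among them. That list was chosen with earlier results of these data known, and its part in the differences between sh-A and sh-B was not tested. Leukocyte markers summed to 106 to 126 CPM with sh-A, 70.0 to 90.4 CPM with sh-B and 175 to 187 CPM in control, mostly CD68. Endothelial markers summed to 7.23 to 18.4, 4.97 to 5.83 and 10.8 to 11.8 CPM in the same order, and the part of these lists was not tested either.

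**Figure D5:**
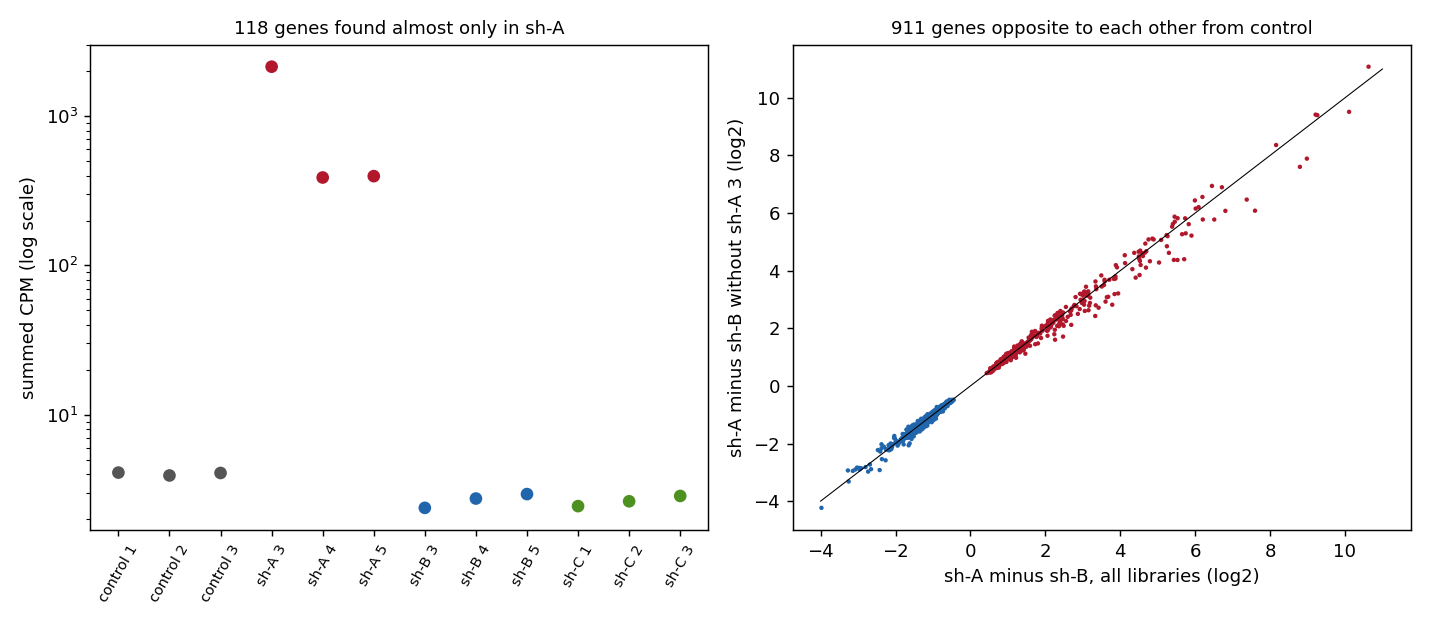
Left, summed CPM on a log axis of the 118 genes found almost only in sh-A, 1 point a library; sh-A 3 stands at 2145 CPM and the other sh-A libraries near 390. Right, sh-A minus sh-B for the 911 opposite genes with all libraries (x axis) and without sh-A 3 (y axis), with the line of equality; no gene crosses 0.

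Leaving out sh-A 3 moved the median difference of the opposite sets little. The median sh-A minus sh-B was 1.37 with it and 1.38 without it for the 423 genes, and -1.05 both ways for the 488. In 34 of the 423 and 2 of the 488, sh-A 3 was at least 2 times the average of its group mates. Near the threshold, BEX5 and MB21D2 were just inside the set, BEX5 at 0.776, 2.31 and 0.228 CPM in control, sh-A and sh-B and MB21D2 at 20.6, 16.4 and 25.4 CPM in control, sh-A and sh-B. CHST4 was just outside, at 4.55, 7.72 and 1.88 CPM in control, sh-A and sh-B, as was LOC728392, at 0.304 CPM in control, 1.01 CPM with sh-A and 0 in sh-B.

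With sh-C, the hairpin that left the least KAT5 transcript (7.92 CPM), the median of each opposite set lay close to control. Of the 423, 32 were called higher and 50 lower with sh-C, a median of -0.07, and of the 488, 83 were higher and 25 lower, a median of 0.09. Over all genes sh-C called 9.79% higher and 7.16% lower. Of the 423 genes, 409 were listed for both hairpins in the authors' deposited tables, all 409 with opposite signs, and 201 had a PPEE (a posterior probability of equal expression, not a p-value) below 0.05 in both. All 488 of the other set were listed in the authors' deposited tables with opposite signs, 344 with a PPEE below 0.05 in both.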

How the data were processed

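Polyadenylated RNA of 12 H1975 libraries was sequenced, and each library has the authors' deposited values per gene, an expected count and FPKM, made with Bowtie2, HISAT and RSEM on hg19, per the submitters' processing notes (roles and versions not given in the sources used here). The protocol in the labels describes no strand marking, so antisense partners cannot be separated. The authors' deposited tables also give, per the file headers, gene symbols, group means as a normalised signal, a log2 fold change and PPEE, a value from 0 to 1 whose name stands for a posterior probability of equal expression, not a p-value. Which tool made it is not stated. Of 20433 genes listed, symbols came from those tables for 15620 and from RefSeq for 4734, and 79 stayed unnamed.

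Expected counts were rounded to whole numbers. Genes with low counts were removed with edgeR's filterByExpr (minimum count 10), which left 15592. TMM scaling and 1 quasi-likelihood fit over all 4 groups followed (edgeR 4.0.16, R 4.3.3), with Benjamini-Hochberg adjustment over all genes and a call below 0.05. A standard error is the log2 difference divided by the root of the F statistic. CPM values use the TMM-scaled totals, and FPKM is used to compare genes with each other. A gene is opposite where sh-A and sh-B are both called against control with different signs. A call between the hairpins was not required. DESeq2 1.42.0 was an alternative. The fit was tested on simulated counts. Totals of 15631504 to 28073366 per library set the counting error. Promoter windows are from RefSeq GRCh38.p14, matched by symbol.

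Members, lists and tests were chosen with earlier results of these data known. Genes are named by rule: KAT5; the 10 opposite genes in each direction with the largest smaller change from control, at 5 CPM or more in control and called with and without sh-A 3; 6 other genes in each direction by size of difference; up to 5 genes of each list by p; a fixed set (EGFR, AXL, MET, MYC, CDH1, VIM, FN1, AREG, EREG, VGF, CDKN1A); and those nearest the threshold. Opposite members of lists, and other genes cited with a list, were named after their values were seen. The replicate numbers 3, 4 and 5 are shared by sh-A and sh-B in the labels. Deviations of same-numbered libraries from their group means correlated at 0.298, 0.12 and 0.219, each above 0.1. So did sh-A 5 with sh-B 4 (0.154) and sh-A 4 with sh-B 5 (0.131), and the other differently numbered pairs were negative. The number is therefore not shown to mark matched pairs. The fit with the number as a block used the sh-A and sh-B libraries alone, and is given where it changes a count. Alternatives were another scaling, no filter and a stricter one, only the groups compared, the block, and leaving out each library. Leaving out the genes found almost only in sh-A was added after seeing the data. Some genes that meet the rule are not reported here.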

Additional observations from a re-analysis of the deposited data

Results flagged for a closer look

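Genes that the hairpins moved in opposite directions from the same control libraries stand here because their levels differ between the hairpins. They were chosen by their calls against control, which all but fix that difference. The counts therefore describe the set and add no test. In one direction, 423 genes rose with sh-A and fell with sh-B, led by VGF. In the other, 488 genes fell with sh-A and rose with sh-B, led by NCEH1 by p among the genes named first.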

How the results depend on the processing

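The count of genes called in sh-A versus sh-B stayed within 1.5 times of 7410 under every alternative run. The lowest was 5804, with only the groups compared. The highest was 8940, without the first library of each of the 3 hairpins (sh-C 1 and the 2 libraries numbered 3). With the replicate number as a block it was 7535. The block was fitted to the sh-A and sh-B libraries alone, so its like is the 5804 and not the 7410. The KAT5 difference was 0.51 with the block (edgeR adjusted p = 0.0063) and 0.46 to 0.56 with 1 library left out. The opposite counts moved most: leaving out 1 library gave 228 to 676 genes higher with sh-A and 277 to 664 lower, and leaving out those 3 libraries gave 971 and 1022, with 410 of the 423 and 485 of the 488 kept. Without control 1, 2 or 3, 231, 236 and 227 of the 423 and 276, 317 and 294 of the 488 stayed opposite; each of these fits has fewer control libraries. No paired value is given for the opposite counts, because the control libraries carry other numbers. For 166 named genes, 2636 values under the alternatives kept direction and call, 0 reversed, 10 lost the call and 1 gained it (CDKN1A). Most of these genes were named for a small p or a large difference in the same data. The leading ones also had to be called without sh-A 3. Their stability was therefore largely fixed by that choice and does not describe all genes. The lost calls were of MYC, KRT19, RPS19 and VIM, VIM only with the groups compared (edgeR adjusted p = 0.06). The cause was not tested. Under the block no named gene lost its call. Levels under 1 CPM rest on few counts, which limits folds of low genes.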
